A study of Homo sapiens with 8 samples.

Results

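Genes of the endoplasmic reticulum (ER) stress response were followed in cultures of the acute myeloid leukemia line MOLM-13, of human origin, that had not met the study's drug. They are HSPA5, HSP90B1, DNAJB9, SDF2L1, HERPUD1, XBP1, PDIA4, CALR, CRELD2 and MANF. The list is given by gene names, with no threshold on measured values, and was drawn up with earlier results of these data known. All 10 were found among the 58735 gene IDs of the count files. The study asked how MOLM-13 cells become resistant to the alkylating agent busulfan, and the 4 libraries used here are its arm without the drug. One library came from parental cells, labelled as their replicate 2. One library each came from cells after 1, 3 and 5 courses of the vehicle dimethyl sulfoxide (DMSO), prepared in parallel with the busulfan cultures at 1% DMSO. All 4 cultures were the same line, with no engineered allele named in the labels, grown in RPMI medium with fetal bovine serum. The labels give at most 20 passages for parental cells and at most 60 for busulfan-resistant cells. They give none for the DMSO cultures, so DMSO, time in culture and passage cannot be told apart. Parental replicate 1 and the 3 libraries of busulfan-treated cells were not used here. No course has a second library, so each value below is 1 culture.

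Secreted and membrane proteins fold in the ER with the help of lumenal chaperones and disulfide isomerases. When unfolded proteins accumulate there, the sensors IRE1, ATF6 and PERK start the unfolded protein response. IRE1 splices XBP1 mRNA so that it encodes an active transcription factor, cleaved ATF6 enters the nucleus, and both bind ER stress elements in the promoters of chaperone genes. PERK slows translation and raises ATF4, a factor that is also raised by the kinase GCN2 when amino acids are short. Induction of the chaperones is therefore the usual sign of ER stress, while ATF4 targets alone can rise in either condition. Gene counts hold both forms of XBP1 mRNA together, so splicing was not measured.

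The promoters of the members are shown first, since some carry elements that ATF6 and XBP1 bind. Sequences are RefSeq windows on GRCh38.p14 of 250 bases before the transcription start, written 5′ to 3′ on the gene's strand. Capitals mark exact matches to 3 motifs. The ER stress element (ERSE) was searched as CCAAT and CCACG with a spacer of 9 bases, ERSE-II as ATTGG and CCACG with a spacer of 1 base, and the core of the amino acid response element, a site for ATF4, as TTGCATCA. A match on the other strand appears as its reverse complement. HSPA5, XBP1 and CRELD2 are shown for their ERSE and HERPUD1 for holding both other motifs.
HSPA5 (chr9:125241344-125241593, minus strand): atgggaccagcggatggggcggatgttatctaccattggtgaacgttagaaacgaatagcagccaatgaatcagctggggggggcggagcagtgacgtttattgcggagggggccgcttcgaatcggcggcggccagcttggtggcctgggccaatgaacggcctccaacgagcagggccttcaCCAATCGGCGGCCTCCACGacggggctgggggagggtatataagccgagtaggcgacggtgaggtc
XBP1 (chr22:28800570-28800819, minus strand): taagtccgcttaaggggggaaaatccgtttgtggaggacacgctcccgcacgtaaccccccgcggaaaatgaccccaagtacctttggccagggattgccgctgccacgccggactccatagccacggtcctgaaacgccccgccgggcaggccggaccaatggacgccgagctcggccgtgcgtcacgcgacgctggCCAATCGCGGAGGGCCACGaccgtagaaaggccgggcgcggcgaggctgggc
CRELD2 (chr22:49918384-49918633, plus strand): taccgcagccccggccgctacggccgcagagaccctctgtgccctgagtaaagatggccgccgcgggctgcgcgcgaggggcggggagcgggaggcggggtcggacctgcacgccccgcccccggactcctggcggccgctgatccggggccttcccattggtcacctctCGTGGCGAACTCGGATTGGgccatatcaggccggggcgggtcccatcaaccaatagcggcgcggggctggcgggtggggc
HERPUD1 (chr16:56931892-56932141, plus strand): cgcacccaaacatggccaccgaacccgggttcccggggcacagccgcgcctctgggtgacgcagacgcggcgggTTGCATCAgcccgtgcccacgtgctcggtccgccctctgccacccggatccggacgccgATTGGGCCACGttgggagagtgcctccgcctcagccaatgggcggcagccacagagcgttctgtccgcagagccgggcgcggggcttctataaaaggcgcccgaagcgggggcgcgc

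In windows from 250 bases before to 50 after the start, on both strands, an exact ERSE stood in the windows of 5 of the 10 members: HSPA5, HSP90B1, XBP1, CALR and CRELD2. It stood in 22 of 27305 windows in the table, 1 window for each gene symbol, or 0.0806%. HSP90B1 held it at 2 places. ERSE-II stood in SDF2L1 and HERPUD1, against 15 of all windows (0.0549%). DNAJB9, PDIA4 and MANF had no exact match to either, though all 10 windows held the shared core CCACG, as did 37.9% of all windows. The unfolded protein response element TGACGTGG was in 0 of 10 members and in 0.795% of all windows. The amino acid response core was in HERPUD1 and no other member, and in 0.923% of all windows. Of the 8074 windows of expressed genes, 0.161% held ERSE, 0.111% ERSE-II and 51.7% CCACG. The amino acid response core was in 0.446% of these and TGACGTGG in 0.929%. Among 17 ATF4 and amino acid stress genes with a window, 0 held an ERSE or ERSE-II and CHAC1 held the amino acid response core. ERSE and ERSE-II both contain CCACG, so their matches are also counted among those of CCACG. ERSE and ERSE-II are known from promoters of genes of this response, and the members were listed as such genes. Their matches beside the shares of all windows are therefore no independent finding. A match to letters is a description and was not tested for binding.

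**Figure D1:**
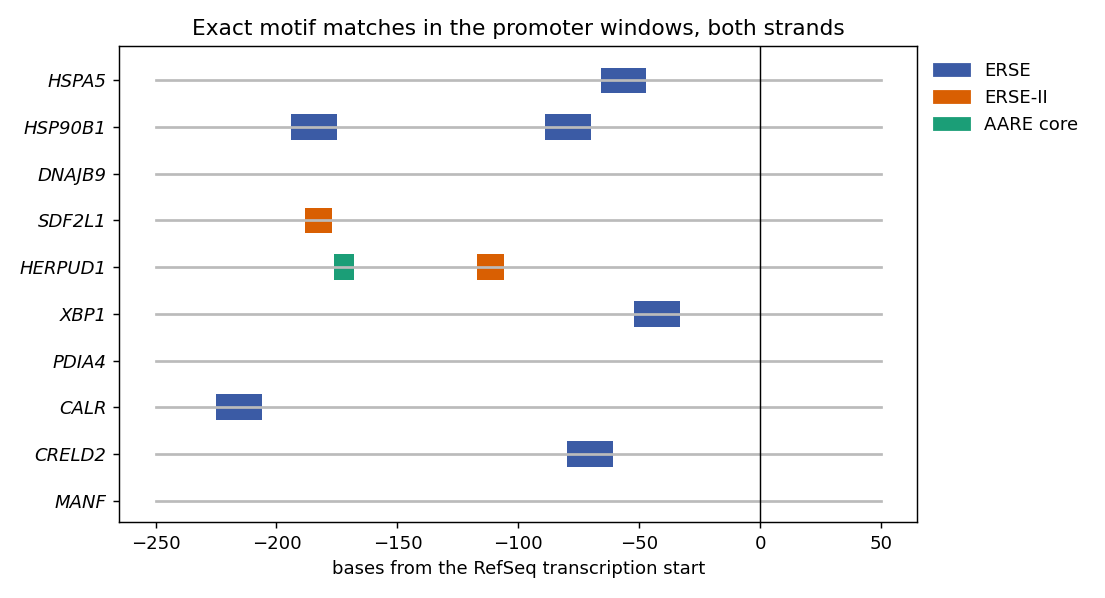
Exact motif matches in the promoter windows of the 10 members, drawn to scale in bases from the RefSeq transcription start (0), with both strands combined. The ERSE stands in 5 members, ERSE-II in SDF2L1 and HERPUD1, the amino acid response core in HERPUD1, and DNAJB9, PDIA4 and MANF hold none of these 3.

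The libraries held between 44795976 and 56825811 gene counts. Levels are given as CPM, counts scaled to a library of fixed size, with sizes adjusted with the trimmed mean of M values (TMM) so that most genes match. Reads aligned to several places took 21.33% of all reads in course 5 and 13.86 to 15.39% in the other 3 libraries, and their part in the results was not tested. All 13 myeloid markers examined averaged 5 CPM or more. Of those with the widest range, ANPEP had 43.8, 22.8 and 28.9 CPM in courses 1, 3 and 5 and 11.1 CPM in parental cells, and MEIS1 had 48.8, 32.7 and 30.8 CPM against 69.2 CPM. CSF1R had 61.5, 27.5 and 21.7 CPM against 49.0 CPM, and MPO had 932, 739 and 336 CPM against 551 CPM. Markers of other cells averaged under 5 CPM, except NKG7 (51.6 to 101.5 CPM over the libraries) and PECAM1 (128 to 184 CPM). Some of these markers differed between the libraries.

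The 9 B and plasma cell markers summed to 10.4, 3.98 and 3.91 CPM in courses 1, 3 and 5 and to 7.30 CPM in parental cells, with JCHAIN and MS4A1 at 0 counts throughout. The 7 T and NK cell markers summed to 103, 66.9 and 51.9 CPM in courses 1, 3 and 5 and to 74.2 CPM in parental cells, with most from NKG7 and CD2 at 0. Within them, CD3D had 24, 3 and 4 counts in courses 1, 3 and 5 and 243 in parental cells, and GNLY had 47, 88 and 9 against 296. CD3D and GNLY were thus lower in all 3 DMSO libraries. NKG7 was not, with 101.5, 65.1 and 51.6 CPM in courses 1, 3 and 5 against 64.8 CPM in parental cells. The 8 markers of stroma and endothelium summed to 180, 185 and 184 CPM against 135 CPM in parental cells, with most from PECAM1 and with CDH5, DCN and COL3A1 at 0. COL1A1 had 108, 10 and 5 counts against 186, and VWF had 98, 23 and 13 against 108. The 8 erythroid markers summed to under 1 CPM in every library, and 5 of them were at 0. The part of these transcripts in the results was not tested.

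The DMSO cultures had lower mRNA levels of 7 of the 10 genes than the parental cells, and this held in each of the 3 courses. The 7 were HSPA5, HSP90B1, SDF2L1, PDIA4, CALR, CRELD2 and MANF. HERPUD1 and DNAJB9 were higher in all 3 DMSO libraries. XBP1 was lower in course 1 and slightly higher in courses 3 and 5. Among 10710 genes averaging 5 CPM or more, 22.0% were lower in all 3 DMSO libraries and 26.3% were higher in all 3. Course by course, 8, 7 and 7 members were below parental in courses 1, 3 and 5, beside 48.2%, 48.6% and 47.1% of all genes.

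HSPA5 encodes BiP, the HSP70 chaperone of the ER lumen and the keeper of the 3 stress sensors. It had 328, 142, 175 and 199 CPM after 0, 1, 3 and 5 courses, where 0 is the parental library. The parental library was the highest and course 1 the lowest, and all DMSO libraries lay well below the parental one. The log2 ratio to parental was -1.21 in course 1 (exact 95% counting interval -1.25 to -1.17), -0.90 in course 3 (-0.94 to -0.87) and -0.72 in course 5 (-0.76 to -0.68). These intervals cover counting error only, not the difference between cultures.

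HSP90B1 encodes GRP94, the HSP90 of the ER. It had 551, 397, 329 and 307 CPM after 0, 1, 3 and 5 courses, so it stood lower at each later course, down to a log2 ratio of -0.84 (-0.87 to -0.81) in course 5. Its processed pseudogenes HSP90B2P and HSP90B3P reached 734 and 298 counts, so some of its reads are uncertain. CALR encodes calreticulin, the lumenal lectin that holds glycoproteins until they fold. It had 796, 558, 420 and 414 CPM and kept the same order of libraries as HSP90B1. Its log2 ratios to parental were -0.51, -0.92 and -0.94 in courses 1, 3 and 5, and courses 3 and 5 did not differ beyond counting error (-0.02, interval -0.05 to 0.01).

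PDIA4, which encodes the disulfide isomerase ERp72, followed HSPA5 in its order. It had 94.0, 48.4, 62.2 and 66.6 CPM after 0, 1, 3 and 5 courses, with the lowest level in course 1. SDF2L1, which encodes a lumenal partner of BiP and its J-domain cochaperones, had 11.8, 5.01, 7.78 and 7.13 CPM. It rested on 216 to 701 counts, and courses 3 and 5 did not differ beyond counting error (-0.13, interval -0.34 to 0.09). In HSPA5, PDIA4 and SDF2L1 the course 1 library was therefore below the later ones, while in HSP90B1 and CALR it was above them.

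CRELD2 and MANF, which encode ER-resident and secreted proteins that ER stress induces, were the members farthest below parental in courses 3 and 5. CRELD2 had 15.9, 7.40, 6.13 and 5.95 CPM after 0, 1, 3 and 5 courses. Its log2 ratio to parental was -1.10 in course 1, -1.37 in course 3 and -1.42 (-1.62 to -1.22) in course 5. MANF had 30.5, 14.7, 13.7 and 13.7 CPM, and its 3 DMSO libraries stood close together, at 14.0 ± 0.608 CPM (SD, n = 3, 1 library per course).

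HERPUD1, which encodes a membrane component of ER-associated degradation, was on the other side of the parental level. It had 62.5, 81.0, 95.5 and 105 CPM after 0, 1, 3 and 5 courses, higher at each step. Its log2 ratio to parental was 0.37 in course 1, 0.61 in course 3 and 0.75 (0.69 to 0.82) in course 5. DNAJB9, which encodes the J-domain cochaperone ERdj4 and is a target of spliced XBP1, had 9.87, 10.2, 12.5 and 13.8 CPM. Its course 1 ratio of 0.05 (-0.13 to 0.23) was not distinguishable from parental at this depth and turned to -0.06 with total counts in place of TMM. Its ratios in courses 3 and 5 were 0.34 (0.18 to 0.51) and 0.48 (0.31 to 0.64).

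XBP1 had 228, 136, 268 and 245 CPM after 0, 1, 3 and 5 courses. The course 1 library was the low one, at a log2 ratio of -0.75 (-0.79 to -0.70), while course 3 stood at 0.23 (0.20 to 0.27) and course 5 at 0.11 (0.07 to 0.15). Between course 3 and course 1 it differed by 0.98 (0.94 to 1.02), the widest gap of any member between those libraries. Course 1 was the lowest of the 4 libraries for these members: XBP1, HSPA5, PDIA4 and SDF2L1, 4 of 10 beside 35.9% of all genes. The other three shared this low point, and unlike XBP1 they stood below the parental level in courses 3 and 5.

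**Figure D2:**
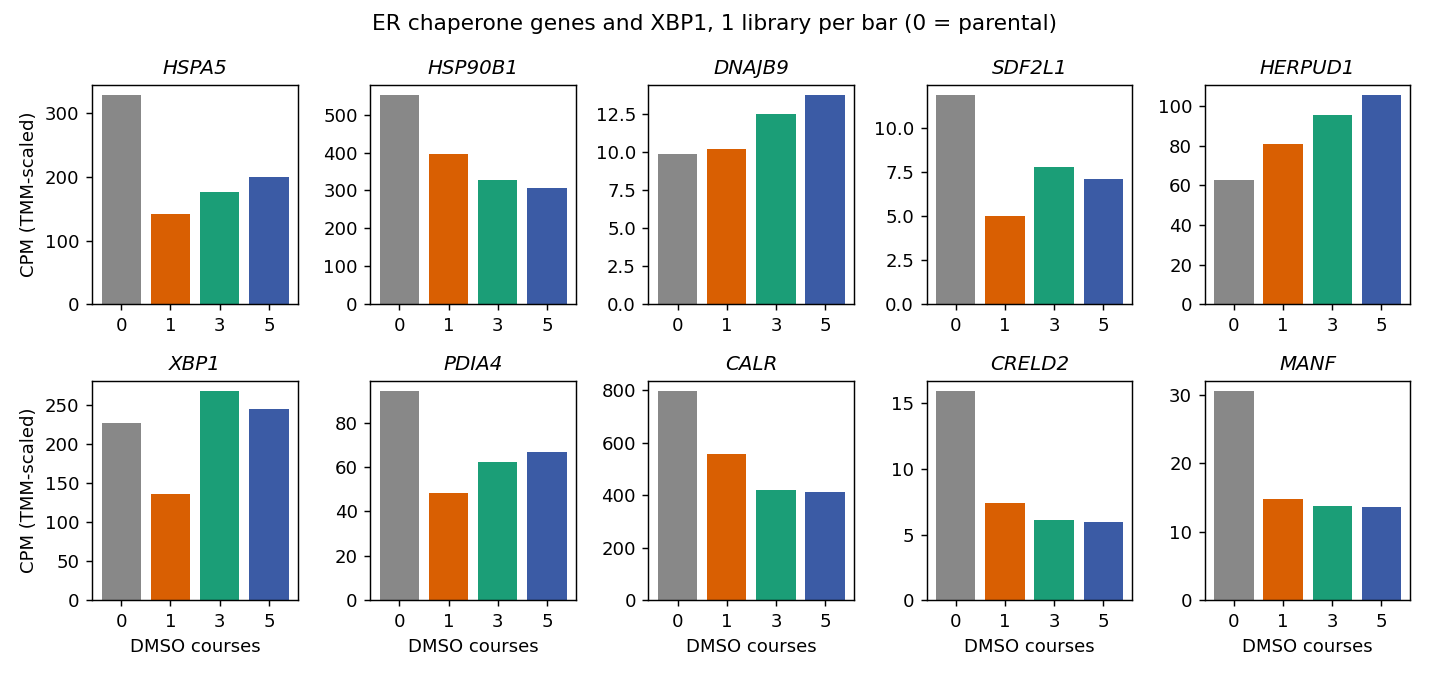
Levels of the 10 genes in CPM with TMM scaling (vertical axes from 0, a scale for each gene) after 0 (parental), 1, 3 and 5 DMSO courses, 1 library per bar. The parental bar is the tallest in 7 genes, the shortest in HERPUD1 and DNAJB9, and in the middle in XBP1.

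**Figure D3:**
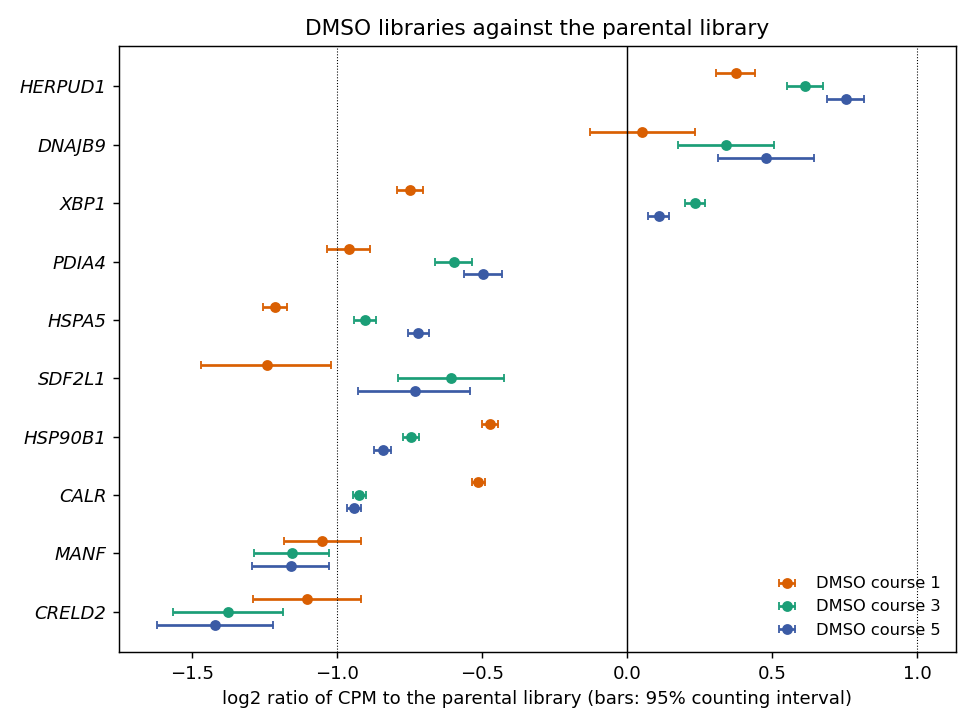
Log2 ratio of CPM in each DMSO library to the parental library, with exact 95% counting intervals, and dotted lines at 2-fold. CRELD2 and MANF lie below -1 in all 3 libraries, HERPUD1 above 0 in all 3, and XBP1 is on both sides of 0.

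Ratios between 2 members within a library do not depend on the scaling between libraries. HERPUD1 had 0.572, 0.544 and 0.529 counts per count of HSPA5 in courses 1, 3 and 5, against 0.191 in parental cells. DNAJB9 had 0.0723, 0.0713 and 0.0691 counts per HSPA5 count in the same DMSO libraries, against 0.0301 in parental cells. For both genes the DMSO libraries lay close together and apart from the parental one. XBP1 per HSPA5 spread more widely, at 0.959, 1.53 and 1.23 in courses 1, 3 and 5 against 0.694 in parental cells. The pair of abundant chaperones did not hold 1 ratio either: HSPA5 per HSP90B1 was 0.357, 0.534 and 0.648 in courses 1, 3 and 5 against 0.595 in parental cells.

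**Figure D4:**
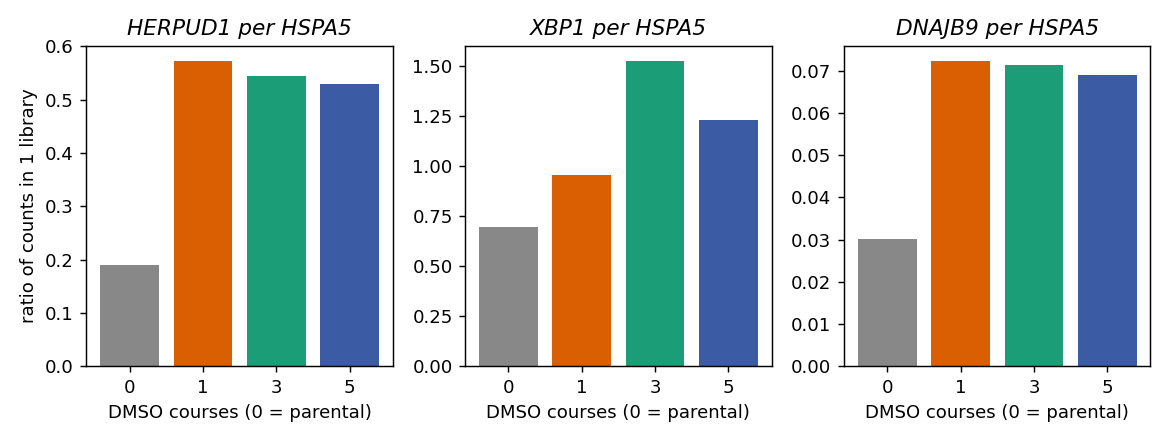
Counts of HERPUD1, XBP1 and DNAJB9 divided by counts of HSPA5 in the same library (vertical axes from 0), after 0 (parental), 1, 3 and 5 DMSO courses. In all 3 panels the parental bar is the shortest, and for HERPUD1 and DNAJB9 the 3 DMSO bars are nearly level.

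Levels between genes were compared per kilobase of exon, on the CPM scale, with exon lengths of GENCODE release 29. CALR was the highest in every library, at 206, 155 and 153 CPM per kb in courses 1, 3 and 5 and 293 in parental cells. In parental cells HSP90B1 (117), HSPA5 (83.9) and XBP1 (75.2) came next, then PDIA4 (28.7), MANF (12.8), HERPUD1 (12.1), SDF2L1 (10.8), DNAJB9 (3.48) and CRELD2 (3.08). In course 5 XBP1 (81.1 CPM per kb) was above HSP90B1 (65.5) and HSPA5 (51.0), and HERPUD1 (20.4) was level with PDIA4 (20.3). MANF (5.74 CPM per kb) was then below SDF2L1 (6.49), which it exceeded in parental cells. Neighbours that changed places, such as MANF with SDF2L1 and HSPA5 with XBP1, cannot be ranked over the 4 libraries. The lengths join the exons of all annotated transcripts, which lowers the value of genes with long rare ones. Summed over the 10 members, 1399, 1390 and 1379 CPM were in courses 1, 3 and 5, against 2127 CPM in parental cells.

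A gene was counted as apart in a pair of libraries when it averaged 5 CPM or more, with the ratio at least 2-fold and a counting interval that excluded equality. Against parental cells, course 1 had 4 members apart, all lower (HSPA5, SDF2L1, CRELD2 and MANF), where 4.19% of all 10710 genes were apart in that direction. Courses 3 and 5 each had 2 members apart, CRELD2 and MANF, both lower, where 2.34% and 4.92% of all genes were. No member was apart on the higher side, against 3.7%, 2.23% and 2.96% of all genes in courses 1, 3 and 5. The median log2 ratio of the 10 members was -0.85, -0.68 and -0.73 in courses 1, 3 and 5, beside 0.02, 0.01 and 0.03 over all genes. All 3 comparisons share the parental library.

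Among the DMSO libraries, no member was apart between course 3 and course 1, where 8.72% of all genes were, and 6 of the 10 were higher in course 3, as were 52.3% of all genes. The median difference was 0.26, from -0.41 in CALR to 0.98 in XBP1. Between course 5 and course 3 no member was apart either, beside 0.99% of all genes. In course 5, 4 of the 10 were higher, against 54.2% of all genes, and the differences ran from -0.13 in SDF2L1 to 0.18 in HSPA5.

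The 3 DMSO libraries were pooled as 1 group and compared with parental cells by edgeR's quasi-likelihood test over 18612 genes, in which the lone parental library is assumed to vary like the DMSO ones. No member passed after Benjamini-Hochberg adjustment, nor did any other gene (0.0%). At an unadjusted p under 0.05 the test listed 1045 genes (5.61%), 6 members among them, all 6 lower, where 3.07% of all genes were listed as lower. MANF was nearest to a call, averaging 14.0 ± 0.608 CPM in the DMSO libraries (SD, n = 3) and 30.5 CPM in the parental library. Its log2 fold change was -1.12 (SE 0.233, edgeR adjusted p = 0.521). CRELD2 was at -1.29 (SE 0.287, edgeR adjusted p = 0.575), HSPA5 at -0.93 (SE 0.262, edgeR adjusted p = 0.73) and HERPUD1 at 0.59 (SE 0.255, edgeR adjusted p = 0.928). With limma-voom 0 genes passed, and DESeq2's Wald test called 209 (1.12%) with 0 members among them. DESeq2's smallest adjusted p for a member was 0.0671.

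The result turned on the course 1 library. Without it, courses 3 and 5 against parental gave 1578 calls (8.59% of 18377 genes) on 1 residual degree of freedom, and 6 members were among them. MANF (-1.16, edgeR adjusted p = 0.00349), CRELD2 (-1.40, edgeR adjusted p = 0.00412), CALR (-0.93, edgeR adjusted p = 0.0212), HSPA5 (-0.81, edgeR adjusted p = 0.0243) and HSP90B1 (-0.79, edgeR adjusted p = 0.0351) were lower. HERPUD1 was higher (0.68, edgeR adjusted p = 0.0378). Without course 3 the test called 25 genes (0.137%) and without course 5 it called 31 (0.168%), with 0 members in both cases. With no filter on low counts it called 13 (0.0454%) and 0 members. All p-values here measure only the spread between these libraries, which are different courses and not replicate cultures.

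A slope over 0, 1, 3 and 5 courses called no gene (0.0%) in the same test, and at an unadjusted p under 0.05 it listed 15.8% of all genes and 4 members. Of these, 3 were lower, beside 9.67% of all genes, and 1 was higher, beside 6.13%. CALR was at -0.18 log2 units per course (SE 0.0513, edgeR adjusted p = 0.234), HSP90B1 at -0.16 (SE 0.0472, edgeR adjusted p = 0.248) and CRELD2 at -0.25 (SE 0.0914, edgeR adjusted p = 0.29). HERPUD1 was at 0.14 (SE 0.046, edgeR adjusted p = 0.27). limma-voom also called 0 genes, and DESeq2's Wald test called 888 (4.77%) with 0 members. Slopes that start at 0 courses include the step from parental to DMSO cells. Over the DMSO courses alone, edgeR slopes were -0.11 in CALR, -0.10 in HSP90B1, -0.08 in CRELD2, -0.03 in MANF and 0.09 in HERPUD1. Slopes fitted to 3 libraries, here and below, had 1 residual degree of freedom. Without course 1 the slope called 2795 genes (15.2%), and HSP90B1, HERPUD1, CALR, CRELD2 and MANF were among them. Without course 3 it called 32 (0.175%) and without course 5 it called 5 (0.0271%), with 0 members each. It called 134 genes (0.468%) with no filter on low counts and 3982 (23.9%) over the DMSO courses alone, again with 0 members.

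Other genes of the pathway were described as lists. Of 6 sensor and protease genes, ATF6B was listed at 0 in every library and 5 were tested, with 0 passing in either fit. ERN1, which encodes IRE1, had 23.3, 28.1, 38.4 and 43.7 CPM after 0, 1, 3 and 5 courses, the highest level being that of course 5. ATF6 had 73.2, 49.96, 95.3 and 125 CPM, with course 1 low and course 5 high. EIF2AK3, which encodes PERK, stayed between 14.7 and 19.1 CPM. MBTPS2, a protease that cuts ATF6, had 16.5, 16.4, 20.2 and 24.4 CPM. The list medians were 0.29 and 0.57 in courses 3 and 5 and near 0 in course 1.

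Of 8 partners of BiP, 0 passed either test. All but 1 of them were lower than parental in course 1, with a list median of -0.59, and 5 were higher in course 5, with a median of 0.29. HYOU1, the large HSP70 that exchanges nucleotide on BiP, had 120, 37.7, 104 and 154 CPM after 0, 1, 3 and 5 courses. Its level in course 5 was above the parental one, unlike that of HSPA5. DNAJB11 had 40.3, 17.3, 30.7 and 37.3 CPM, DNAJC10 had 71.6, 34.4, 81.2 and 106 CPM, and DNAJC1 had 43.1, 23.0, 20.9 and 27.5 CPM. DNAJC1 alone of these 4 was below parental in courses 3 and 5 by more than 1.5-fold.

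The 14 disulfide isomerases and oxidases were spread around the parental level, with medians of -0.28, 0.00 and 0.05 in courses 1, 3 and 5 and 0 passing either test. PRDX4, a peroxidase of the ER, had 47.8, 22.1, 29.7 and 32.7 CPM after 0, 1, 3 and 5 courses, and PDIA5 had 22.4, 12.5, 22.6 and 25.4 CPM. TXNDC5 and TXNDC12, the other genes of widest range, overlap other genes on their strand and are uncertain. In the calnexin cycle 8 of 9 genes were above parental in course 3 and again in course 5, with medians of 0.16 and 0.22. UGGT1, the glucosyltransferase that senses misfolded glycoproteins, had 83.4, 43.7, 99.5 and 122 CPM, and calnexin itself (CANX) had 544, 531, 585 and 655 CPM. CANX and CALR, the membrane and lumenal lectins of the same cycle, therefore stood on opposite sides of the parental level in courses 3 and 5.

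Of 18 genes of ER-associated degradation, DERL3 was listed at 0 in every library and 17 were tested, with 0 passing. SEL1L, the adaptor of the degradation ligase, had 93.0, 85.6, 124 and 190 CPM after 0, 1, 3 and 5 courses and was the 1 gene of this list apart from parental in course 5. VCP, the segregase that extracts substrates, had 186, 99.1, 140 and 165 CPM, the parental library being the highest. In translocation and signal peptide removal 15 of 16 genes were below parental in course 1, with a median of -0.30. SRPRB, a subunit of the signal recognition particle receptor, had 58.6, 24.5, 59.7 and 72.5 CPM. In courses 3 and 5 the medians of this list were 0.00 and 0.07, and in course 3 the sign turned with total counts (-0.08) and with DESeq2's size factors (-0.004).

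The ATF4 and amino acid stress genes were on the other side of the parental level from most chaperones in the later courses. All 21 were above the parental level in course 3 and again in course 5, with medians of 0.87 and 1.29, while 18 were below it in course 1, with a median of -1.22. Apart from parental were 12 lower and 2 higher genes in course 1, 8 higher in course 3 and 15 higher in course 5. Over all genes the shares were 4.19% lower and 3.7% higher in course 1, 2.23% higher in course 3 and 2.96% higher in course 5. None of the 21 passed either test over all genes. CHAC1, the enzyme that degrades glutathione, had 0.302 CPM (13 counts) in course 1 and 49.8 and 51.6 CPM in courses 3 and 5, against 15.7 CPM in parental cells. PSAT1, an enzyme of serine synthesis, had 23.8, 332 and 438 CPM in courses 1, 3 and 5, against 212 CPM in parental cells. STC2, a secreted glycoprotein, had 5.48, 70.1 and 97.8 CPM, against 27.5 CPM. INHBE, a hormone subunit, had 0.0464 CPM (2 counts) in course 1 and 9.14 and 9.19 CPM in courses 3 and 5, against 2.67 CPM in parental cells. In all 4 genes course 1 was the lowest library and both later ones were above the parental one.

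In course 1, then, both lists were mostly below the parental level, and in courses 3 and 5 the amino acid genes were above it and 7 of 10 ER genes below. HERPUD1 was above parental in course 1, where 18 of the 21 amino acid genes were below. The genes higher in course 1 on the amino acid list were CEBPB, PPP1R15A and DDIT3, and they were higher in all 3 DMSO libraries. DDIT3, the death-linked factor CHOP that both stresses induce, had 33.6, 31.5 and 35.1 CPM in courses 1, 3 and 5 and 21.1 CPM in parental cells. It shares 105 bases of exon with a neighbour on its strand and is uncertain to that extent. CEBPB had 34.2, 45.8 and 54.7 CPM against 12.03 CPM in parental cells, and PPP1R15A, which restores translation, had 242, 138 and 167 CPM against 103 CPM.

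Heat shock chaperones outside the ER were also lower in part. This list holds 10 genes of the cytosol and nucleus and the mitochondrial chaperonins HSPD1 and HSPE1, which were below parental in all 3 courses. Of the 12 genes, 9, 10 and 9 were below parental in courses 1, 3 and 5, with medians of -0.64, -0.41 and -0.30, and 0 passed either test. HSPA8, the constitutive HSP70 of the cytosol, had 366, 327 and 345 CPM in courses 1, 3 and 5 and 630 CPM in parental cells. HSPH1, its nucleotide exchange factor, had 64.4, 84.0 and 100 CPM against 130 CPM. HSPA4 had 77.9, 138 and 174 CPM against 144 CPM, so its course 5 library was above the parental one. Reads of SRPRB, PDIA5, DNAJB11, DNAJC10, MBTPS2, HSPA8 and HSPE1 are uncertain in part, since another gene shares exon bases with each.

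**Figure D5:**
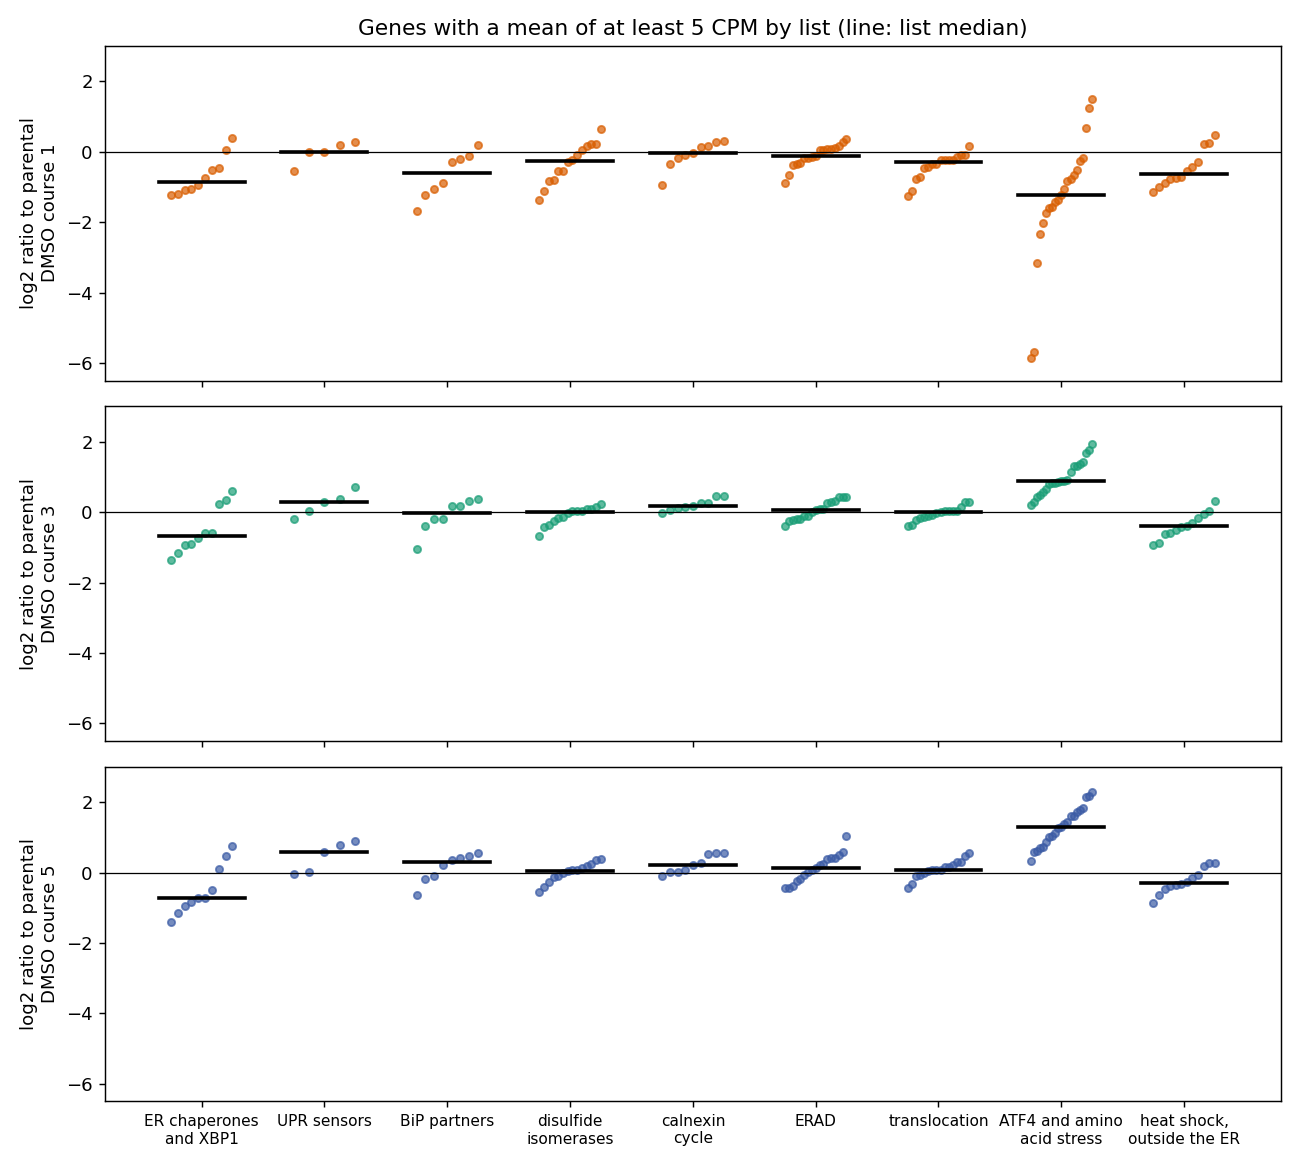
Log2 ratio to the parental library of each gene with a mean of at least 5 CPM, by list, in DMSO courses 1, 3 and 5 from top to bottom, with a bar at each list's median. The ER chaperones and XBP1 have medians of -0.85, -0.68 and -0.73, while the ATF4 and amino acid stress genes have -1.22, 0.87 and 1.29.

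The genes whose pattern was most like HSPA5 were sought by the root mean square difference of the 3 log2 ratios to parental, over 7309 protein-coding genes averaging 20 CPM or more. They were HS6ST1 (0.054 log2 units), the mitochondrial cochaperonin gene HSPE1 (0.066), PBK and DCTPP1 (0.115 each) and the replication licensing gene CDC6 (0.12). Among the other members SDF2L1 (0.172) and PDIA4 (0.263) were nearest to HSPA5, and HERPUD1 (1.52) was farthest. For XBP1 they included TYSND1 (0.041), CYB561A3 (0.056), KIF1C (0.067) and EMB (0.089). DNAJB9 was the member nearest to XBP1, at 0.512, and CRELD2 the farthest, at 1.30. With 3 ratios per gene that share 1 parental library, these lists are a description. In bulk RNA, fewer cells expressing a gene and less of its mRNA per cell cannot be told apart.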

How the data were processed

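Bulk RNA libraries were made with the TruSeq kit and read on a HiSeq instrument, per the labels' protocols. The authors deposited raw counts of reads for each Ensembl gene. The submitters' processing notes name FastQC 0.11.5, TopHat2 2.0.11, HTSeq 0.6p1 and hg19. GENCODE release 29, a GRCh38 annotation, named all 58735 IDs, which leaves the build of the counts unclear, and no coordinates of counted genes are given. Counting was reverse-stranded as far as file names tell. The 5 summary rows (24.57 to 29.81% of reads) were kept out of library sizes and tests.

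CPM was computed from these counts with TMM scaling on the 18612 genes that filterByExpr kept (minimum count 10, total 15). The tools were edgeR 4.0.16, DESeq2 1.42.0 and limma 3.58.1 under R 4.3.3. Calls used a Benjamini-Hochberg adjusted p under 0.05, and both tests over the 4 libraries had 2 residual degrees of freedom. Fits that left out a library had 1. Single libraries were compared without a test, by ratios with exact binomial 95% intervals. The fitting functions were tested on simulated data. Members and lists were chosen with earlier results of these data known. Genes named were all members, up to 4 of each other list with the widest range of log2 CPM, and the genes nearest in pattern, 1 of which is not reported here. Genes named outside this rule were chosen after their values were seen. They were CEBPB, PPP1R15A, DDIT3, HSPD1, the genes listed at 0 and the cell type markers other than ANPEP, MPO, CSF1R, MEIS1, NKG7 and PECAM1. Alternatives were other scalings, filters, tools and thresholds and leaving out each DMSO library.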

Additional observations from a re-analysis of the deposited data

Results flagged for a closer look

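XBP1 stood on opposite sides of the parental level in 2 DMSO libraries, and both counting intervals excluded 0. Its log2 ratio to parental was -0.75 in course 1 and 0.11 in course 5. Each course has 1 library, so the difference was not tested. Among the other 9 members none had ratios of opposite sign in these libraries with both intervals off 0.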

How the results depend on the processing

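No paired analysis was possible because each group has 1 library. The members had at least 216 counts in every library, and depth limited the smallest differences, such as that of DNAJB9 in course 1. Total counts in place of TMM shifted all course 1 ratios by -0.11 log2 units. The members' median then was -0.97 in course 1, and leaving out each member in turn put it at -0.96 to -0.75 there and at its highest at -0.61 in course 3. Of 30 member ratios, DNAJB9 in course 1 reversed with total counts (-0.062). List medians that reversed were those of the sensors in course 1 with DESeq2's size factors (0.007), of degradation in course 3 with total counts (-0.012) and of translocation in course 3 (-0.004 with DESeq2's size factors, -0.076 with total counts). With no filter on low counts the pooled test called 13 genes and the slope 134. DESeq2's Wald test called 209 and 888. Leaving out 1 DMSO library gave 25 to 1578 calls in the pooled test and 5 to 2795 for the slope. Over the DMSO courses alone the slope called 3982 genes, 0 members among them. HSPA5 (0.12), SDF2L1 (0.12) and PDIA4 (0.11) then had a slope of the opposite sign. Leaving out 1 DMSO library put the pooled log2 fold change of XBP1 at -0.26 to 0.17, and it reversed without course 1 (0.17, edgeR adjusted p = 0.65). At 1.5-fold, 2846, 1399 and 2489 of 10710 genes were apart from parental in courses 1, 3 and 5. Between course 3 and course 1 there were then 2767 of 10710, and between course 5 and course 3 there were 543. Of the 10 members, 6 were then apart from parental in course 1, 8 in course 3 and 7 in course 5. HERPUD1 was on the higher side in courses 3 and 5. Between courses 3 and 1, 2 of the 10 members were apart, a smaller share than that of all genes. At a mean of at least 1 CPM the genes apart were 1430, 1045 and 1571 against parental, 1533 for course 3 against course 1 and 336 for course 5 against course 3. The cause of these changes was not tested.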
